A study of Homo sapiens with 18 samples.

Results

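Hyaluronan (HA) of either polymer length was compared with PBS in unstressed IMR90 cells, a line of human lung fibroblasts. The comparison took 9 of the 18 libraries of the series by their labels. Of these, 3 came from cells given PBS, 3 from cells given cNSF-HA and 3 from cells given fNSF-HA, with HA at 20 μg/ml, and the cells were collected after 6 h without any oxidant. cNSF-HA was HA purified from the medium of naked mole-rat skin fibroblasts (NSF) and heated with inactive hyaluronidase, and fNSF-HA was the same HA cut in part by the active enzyme. By the study's account most of fNSF-HA still had a high molecular mass. HA was dissolved in PBS, and the sources used here do not state whether the PBS given to control cells held inactive enzyme. The other 9 libraries had the same pre-incubations, followed by 200 μM of the oxidant tert-butyl hydroperoxide (tBHP) for 1 h and a further 5 h of culture, and gave a second set of HA and PBS libraries. The study calls its replicates biological, and all of them came from this 1 line.

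HA is a long unbranched sugar polymer of the extracellular matrix, made at the cell surface by hyaluronan synthases and cut by hyaluronidases. Cells bind it through receptors such as CD44 and RHAMM, and secreted proteins such as versican and TSG-6 hold it in the pericellular coat. HA of very high molecular mass is generally described as quieting inflammatory signalling, and short fragments as provoking it. The comparison of the HA groups with PBS asked what HA itself changed in the transcriptome before any stress.

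The 9 libraries held 21130667 to 25416049 reads on genes (median 22861463). Values are given as normalised counts, the reads of a gene divided by the size factor of its library. All 14 fibroblast markers listed were measured, and their summed normalised counts ranged from 1152920 to 1177600 in PBS cells and from 1156650 to 1176840 in HA cells. Of 10 epithelial, 7 endothelial and 8 leukocyte markers, 2, 2 and 1 reached the minimum level for testing, and their sums overlapped between HA and PBS cells. The leukocyte sum was 31.1 to 37.3 in PBS cells and 28.4 to 45.0 in HA cells. No pair of replicates was identical.

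Averaged over both polymer lengths, few transcripts of unstressed IMR90 cells differed between HA and PBS. Among 13686 genes tested, 10 genes differed between HA and PBS at an adjusted p under 0.05 (0.0731% of the genes), and all 10 were lower with HA. No gene was called higher (0 in limma, edgeR and DESeq2), while limma with no filter on low values called 22 of 50 genes higher and with a replicate block 1 of 17. Changes in opposite directions with cNSF-HA and fNSF-HA cancel in this average, and 941 genes differed between these groups. The effect was taken as the mean of the cNSF-HA and fNSF-HA groups minus PBS on the log2(normalised count + 1) scale, which understates differences of genes with low values, and was tested with limma with Benjamini-Hochberg adjustment over all genes. An unadjusted p under 0.05 was found for 716 genes (5.23%), of which 390 were higher (2.85%) and 326 lower (2.38%). edgeR called 12 genes, all lower, and DESeq2 called 0 genes (313 with an unadjusted p under 0.05).

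The precision of this comparison was high for abundant genes. The median log2 difference over all genes was 0.0033 and the median standard error 0.054. The 95% interval of the HA effect lay within a log2 difference of 0.5 either side of PBS, a 1.41-fold change, for 85.2% of all genes tested. Of the 10280 genes with a mean of at least 100 over the 9 libraries, it lay within 0.5 for 99.9% and within 0.25, a 1.19-fold change, for 91.0%. Small differences of single uncalled genes depended on single libraries. Of 81 such genes examined, 38 moved by over 1.5 times or turned sign when 1 library was left out, and 7 turned sign. Of 24 list medians, 22 moved so far and 11 turned sign.

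**Figure D1:**
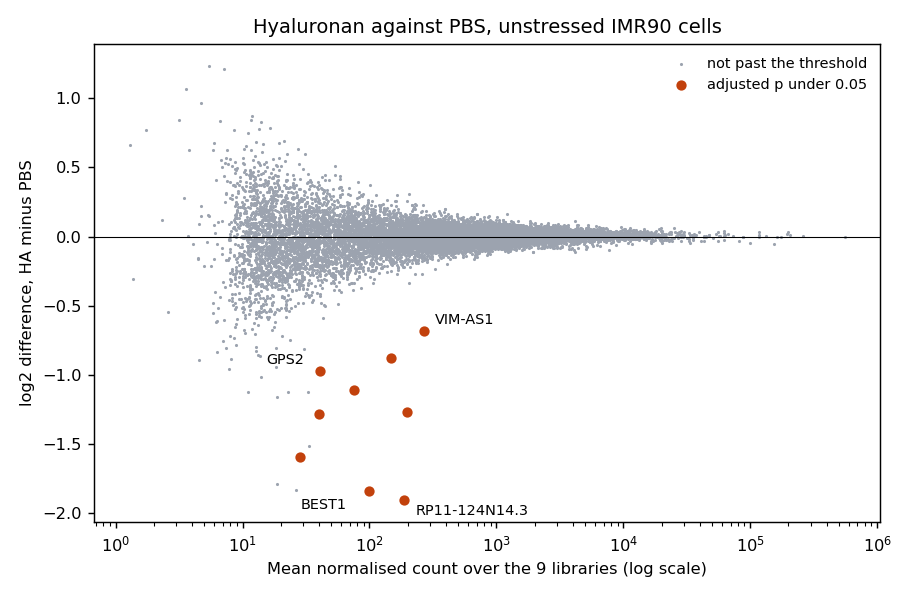
Each point is a gene tested, with its mean normalised count over the 9 unstressed libraries on a log axis and its log2 difference between HA and PBS on the vertical axis. The 9 called genes drawn in orange lie between -1.91 and -0.68, below the bulk of the genes at their level, and no called gene lies above 0.

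The genes called lower were 3 genes with a gene symbol, VIM-AS1, BEST1 and GPS2, 6 genes with clone-based names and 1 gene that is not described here. Of these, the rule for named genes covers VIM-AS1 only, and the others are named after their values were seen. VIM-AS1, an RNA transcribed opposite to the vimentin gene, had 347, 358 and 352 normalised counts in the PBS libraries. It had 285, 291 and 202 after cNSF-HA and 250.1, 168 and 157 after fNSF-HA, so that every HA library lay below every PBS library. The effect was -0.68 ± 0.11 on the log2 scale (standard error, limma adjusted p = 0.00706).

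BEST1, which encodes the chloride channel bestrophin-1 of retinal pigment epithelium, had 169.9, 181 and 177 normalised counts with PBS. After cNSF-HA it had 95.4, 118 and 33.1, and after fNSF-HA 76.5, 14.8 and 29.8. The HA libraries were all lower and spread over a wider range than the PBS libraries, with a log2 difference of -1.84 ± 0.30 (standard error, limma adjusted p = 0.00706). GPS2, a subunit of the NCoR and SMRT corepressor complexes, had 51.2, 66.3 and 59.7 normalised counts with PBS, 42.0, 54.7 and 30.0 with cNSF-HA and 25.5, 22.7 and 15.8 with fNSF-HA. Here cNSF-HA replicate 2 overlapped the PBS range, with a log2 difference of -0.98 ± 0.19 (standard error, limma adjusted p = 0.0260).

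RP11-124N14.3 had the lowest limma effect, close to that of BEST1, which was the lower in edgeR and DESeq2. The values of RP11-124N14.3 were 299, 360.2 and 315 normalised counts with PBS, 238, 224 and 58.9 with cNSF-HA and 130.4, 18.7 and 49.4 with fNSF-HA. The fall was -1.91 ± 0.34 on the log2 scale (standard error, limma adjusted p = 0.0138). RP5-940J5.9 had its HA libraries in the same order, with 316, 320.1 and 278 in PBS cells, 245, 229 and 93.0 after cNSF-HA and 175, 55.2 and 77.3 after fNSF-HA. The remaining clone-named genes were RP11-386G11.10, RP11-290D2.6, CTD-2033D15.1 and RP11-138I1.4, with log2 differences of -1.11, -0.88, -1.60 and -1.29. In RP11-138I1.4 the PBS libraries (50.2 to 71.8) overlapped cNSF-HA replicate 1 (56.3), and in the other 3 they did not overlap any HA library. In each of these 9 genes cNSF-HA replicate 3 was the lowest cNSF-HA library, and in all but GPS2 it lay within the fNSF-HA range. fNSF-HA replicate 1 was the highest fNSF-HA library in all 9. Over all genes tested, 146 genes (1.07%) had every HA library below every PBS library and 203 (1.48%) had every HA library above.

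After tBHP the same genes were low in every group. BEST1 had 34.0 to 56.9 normalised counts in PBS cells after tBHP and 35.1 to 59.2 in HA cells, and RP11-124N14.3 had means of 14.9 with PBS, 34.2 with cNSF-HA and 22.9 with fNSF-HA. For VIM-AS1 the range was 103 to 191 with PBS and 95.7 to 185 with HA. The HA effect after tBHP was 0.17 in BEST1, 0.11 in VIM-AS1, -0.23 in GPS2 and 1.20 in RP11-124N14.3 on the log2 scale, and limma gave an adjusted p of 0.992 for all 4. Every tBHP library lay below the unstressed PBS libraries in all 9 genes. The difference between the effects with and without tBHP was past the threshold for 0 genes in limma (771 with an unadjusted p under 0.05), 0 in edgeR and 4 in DESeq2.

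**Figure D2:**
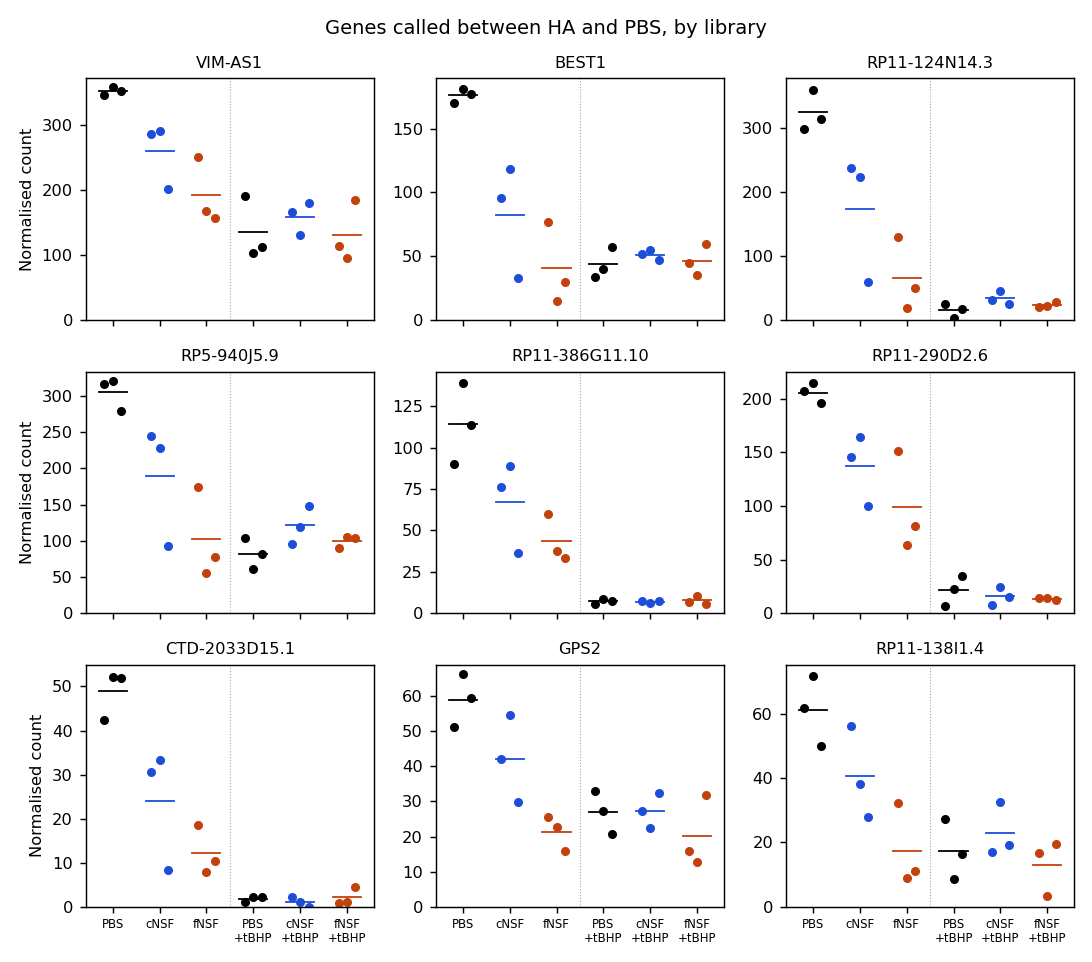
Normalised counts of 9 called genes in each of the 18 libraries, on linear axes from 0, with a point for each library, a bar at the group mean and groups with tBHP to the right of the dotted line. PBS means without tBHP stand highest in each panel, with 1 cNSF-HA library in the PBS range in GPS2 and in RP11-138I1.4, cNSF-HA replicate 3 and the fNSF-HA libraries lie lower, and the groups with tBHP lie within or below the range of the HA libraries.

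The calls depended on single libraries. Leaving out PBS replicate 2 or PBS replicate 3 gave 0 calls, leaving out fNSF-HA replicate 3 gave 2, and leaving out PBS replicate 1 or cNSF-HA replicate 3 gave 6, of which 5 and 6 were among the 10. Without both cNSF-HA replicate 3 and fNSF-HA replicate 2, each the lowest of its own group in most of the called genes shown, an alternative chosen after seeing the data, 6 genes were called, all among the 10. With 1 coefficient for any HA, so that the difference between cNSF-HA and fNSF-HA entered the spread, 0 genes were called (497 with an unadjusted p under 0.05 in limma).

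Those called genes described here that have a known position shared a feature that the test did not use. The 6 clone-named genes could not be placed, so their overlaps are unknown. VIM-AS1, BEST1 and GPS2 could be placed by name on the GENCODE 29 annotation (GRCh38), and each had exons overlapping those of a gene on the other strand with at least 100 times its normalised count, not divided by length. VIM-AS1 (chromosome 10, 17214239 to 17229985, minus strand, an antisense RNA) overlapped 641 exon bases of VIM, which encodes the intermediate filament vimentin and had 809 times its count. BEST1 (chromosome 11, 61949821 to 61965515, plus strand, protein coding) overlapped 1267 exon bases of FTH1, the heavy chain of the iron store ferritin, at 639 times its count. GPS2 (chromosome 17, 7311324 to 7315564, minus strand, protein coding) overlapped 241 exon bases of EIF5A, a translation factor, at 502 times its count. The library kit does not mark strand, so reads of such a pair cannot be told apart where they overlap.

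The abundant partners themselves were level across the groups. VIM ranged from 157795 to 163674 normalised counts over the 9 libraries, with a log2 difference of -0.0024 between HA and PBS. FTH1 differed by 0.030 and EIF5A by 0.020, with adjusted p-values of 0.956 and 0.968 from limma. Of the 79 genes with such a partner at 100 times their count or more, 14 (17.7%) had an unadjusted p under 0.05, against 5.14% of the 9930 genes with no overlap, and 6 (7.59%) had every HA library below every PBS library, against 0.967% of the genes with no overlap. The 79 include the called genes that prompted this comparison. The median log2 difference was -0.069 in these 79 genes and 0.0039 in genes with no overlap. By library, relative to the PBS mean, the median of the 79 genes was uneven. It was -0.087, -0.18 and -8.7e-05 with fNSF-HA, -0.021, -0.039 and -0.015 with cNSF-HA and -0.019 to 0.030 with PBS. SNX22, opposite PPIB, and SNX32, opposite CFL1, had the next smallest p-values of this kind, with log2 differences of -1.52 and -1.12 (adjusted p = 0.0536 and 0.184 from limma), and are named after their values were seen. With fNSF-HA alone both were called, at -2.18 and -1.51 (adjusted p = 0.00226 and 0.0240 from limma). The part of the overlap in these values was not tested.

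**Figure D3:**
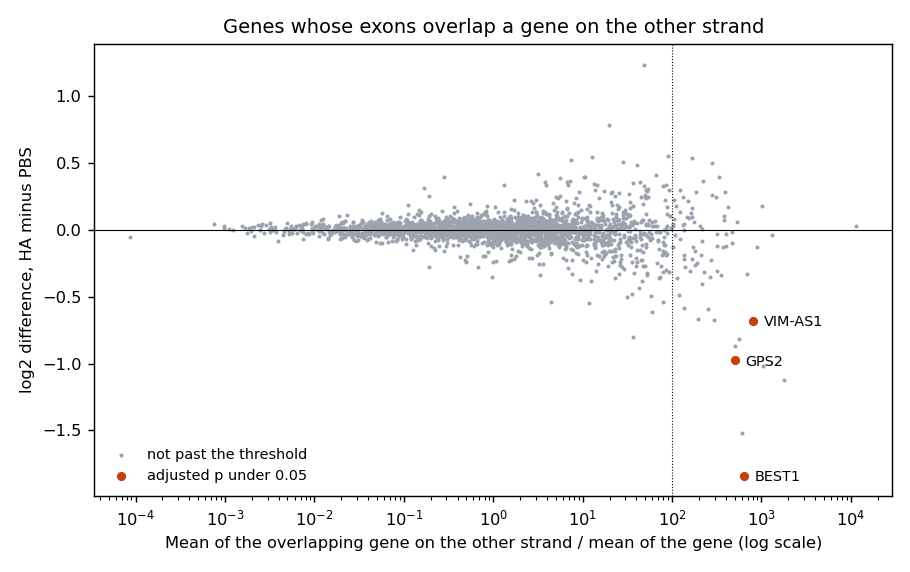
Each point is a gene whose exons overlap those of a gene on the other strand, with the ratio of the partner's mean normalised count to its own on a log axis and the log2 difference between HA and PBS on the vertical axis. The called genes VIM-AS1, BEST1 and GPS2 lie right of the dotted line at a ratio of 100, at 502 to 809.

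The number of genes with any read also moved with these calls. It was 21187 to 21612 in the PBS libraries and 20686 to 21184 in the HA libraries, with each HA library below each PBS library (exact permutation test over the libraries, two-sided, p = 0.0119, the smallest that the design can give, adjusted p = 0.0595 over 5 library measures). The PBS libraries had 22852097 to 25416049 reads on genes and the HA libraries 21130667 to 23935069. With every library thinned to 21130667 reads, a setting chosen after seeing the data, the range was 20952.5 to 21052 with PBS, 20686 to 21019 with cNSF-HA and 20505 to 20582 with fNSF-HA (exact permutation p = 0.0357). The shares of reads on mitochondrially encoded, ribosomal protein and replication-dependent histone genes and the depth itself had adjusted p-values from 0.357 to 0.869 in the exact permutation test. The part of these measures in the calls was not tested.

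No gene passed the threshold in the direction of higher expression with HA (0 of 13686), and the 10 genes with the smallest p-values in that direction and a mean of at least 100 are given in its place. The smallest p was that of ATOH8, a basic helix-loop-helix transcription factor, with 1089, 1104 and 1159.6 normalised counts in PBS cells, 1363, 1266 and 1201 after cNSF-HA and 1265, 1237 and 1197 after fNSF-HA. The HA libraries were all higher, by 0.17 ± 0.039 on the log2 scale (standard error, limma adjusted p = 0.184). AIM1 had 169.9, 187 and 176 normalised counts with PBS and 202 to 234 with HA, a log2 difference of 0.31 (adjusted p = 0.239 from limma). SMAD6, an inhibitor of BMP signalling, had 778 to 837 normalised counts with PBS and 850.4 to 936 with HA, a difference of 0.15. ULBP3, a ligand of the immune receptor NKG2D, had 131 to 155 with PBS and 159 to 198 with HA, and TSHZ1, a zinc finger factor, 346 to 369.5 and 388 to 435. KIF3C, SIK3, NAA40, KMT2D and ST3GAL3 had log2 differences of 0.14, 0.16, 0.16, 0.086 and 0.20. None of these 10 genes was past the threshold for cNSF-HA or fNSF-HA alone. After tBHP their differences ranged from -0.34 in KMT2D to -0.0074 in AIM1, so that each of the 10 lay on the other side of PBS in the second set of libraries, with adjusted p-values of 0.992 or more from limma.

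The genes with lower values and the smallest p-values outside the called ones were taken in the same way, after their values were seen. SAMD9L, an interferon-inducible growth inhibitor, had 248, 220.2 and 242 normalised counts with PBS, 156, 193 and 196 with cNSF-HA and 174, 209.9 and 198 with fNSF-HA. These groups did not overlap, and the effect was -0.34 ± 0.085 (standard error, limma adjusted p = 0.311). ESCO1, a cohesin acetyltransferase, had 252 to 262 normalised counts with PBS and 191 to 249 with HA. CPNE7, a calcium-binding copine, had 356 to 368 and 268 to 354. SDC4, the heparan sulfate proteoglycan syndecan-4, had 5225 to 5275 and 4707 to 5218, a difference of -0.089. STC1, ARHGAP29, LIF, THBS1, RDH10 and FAM107B differed by -0.11, -0.11, -0.10, -0.057, -0.20 and -0.083, with adjusted p-values from 0.405 to 0.825 from limma. Over the 716 genes with an unadjusted p under 0.05, the difference had the same sign after tBHP in 233 (32.5%), against 43.9% of all genes tested, and 4 had an unadjusted p under 0.05 in the same direction in both sets.

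Base composition moved with direction in these 716 genes. The median GC content of the longest annotated match was 53.02% in the genes higher with HA, 42.7% in the lower ones and 47.9% over all genes tested with a value (12505 genes). With the trend of each library with GC content and length removed, the test on the 12505 placed genes, which leave out the 6 clone-named calls, called 5 genes, all lower, among them VIM-AS1, BEST1 and GPS2.

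Genes that make, cut and bind HA were examined next, as the list most directly tied to the treatment. Of 33 genes listed, 16 were tested, 0 were called in either direction, 5 had higher and 11 lower values with HA, and 2 had an unadjusted p under 0.05, beside 5.23% of all genes. Their median log2 difference was -0.022, against 0.0033 over all genes. None of the 16 had HA libraries that lay all above or all below the PBS libraries, which was the case for 1.48% and 1.07% of all genes.

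Among the synthases, HAS2, the main HA synthase of fibroblasts, had 11114, 11004 and 11110.2 normalised counts in PBS cells, 9911, 10234 and 10730.5 after cNSF-HA and 10931, 11301 and 11172 after fNSF-HA. The cNSF-HA libraries were lower and the fNSF-HA libraries spanned the PBS values. The log2 difference of HA to PBS was -0.050 (95% interval -0.096 to -0.0029, adjusted p = 0.931 from limma), and that of cNSF-HA to fNSF-HA was -0.11 (adjusted p = 0.00973 from limma). HAS3 was near the limit of measurement, at 14.9 to 24.2 normalised counts with PBS and 9.77 to 20.7 with HA. It overlaps 365 exon bases of CHTF8 on the other strand, at 230.1 times its count, so that reads of this pair cannot be told apart there. HAS1 had no read in any of the 9 libraries, which allows up to 3 reads in each at this counting error. UGDH, which makes the UDP-glucuronic acid that the synthases use, had 2897 to 2908 normalised counts with PBS and 2708 to 2947 with HA, a difference of -0.040 (interval -0.093 to 0.013).

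Of the degrading enzymes, HYAL2, a hyaluronidase anchored at the cell surface, had 979, 1035 and 950.3 normalised counts with PBS and 959.8 to 1082 with HA, a log2 difference of 0.077 (interval -0.0071 to 0.16). CEMIP and TMEM2, which act in HA breakdown outside the lysosome, differed by -0.096 and -0.011, and CEMIP by -0.018 without PBS replicate 3. HYAL3 had 44.4 to 53.2 normalised counts with PBS and 50.7 to 59.6 with HA, a difference of 0.15 with an interval of -0.13 to 0.43. The intervals of the abundant enzymes were narrow, and those of the rarer ones allow larger changes.

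CD44, the main HA receptor of these cells, had 33108, 33908 and 33259.6 normalised counts with PBS, 31777, 32705 and 31857 with cNSF-HA and 33841, 33915 and 33856 with fNSF-HA. It differed from PBS by -0.019 (interval -0.057 to 0.018, adjusted p = 0.962 from limma) and between cNSF-HA and fNSF-HA by -0.077 (adjusted p = 0.0256 from limma). HMMR, which encodes RHAMM, had 1755 to 1847 normalised counts with PBS, 1604 to 1730.0 with cNSF-HA and 1777 to 1891 with fNSF-HA, an HA effect of -0.045 (interval -0.11 to 0.023). LAYN, a lectin that binds HA, differed by -0.0015. The receptors LYVE1, STAB1, STAB2, TLR2 and TLR4 had at most 3.46 normalised counts in any of the 9 libraries and were not tested.

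For proteins that organise the HA coat, TNFAIP6, which encodes TSG-6, had 152, 196 and 160.0 normalised counts with PBS, 132, 139.8 and 146 with cNSF-HA and 159.9, 145 and 166 with fNSF-HA. Its log2 difference was -0.19 with an interval of -0.37 to -0.00025 (adjusted p = 0.942 from limma), and it was -0.078 without PBS replicate 2. VCAN, the proteoglycan versican, differed by -0.025 (interval -0.064 to 0.015) at 20016 to 21432 normalised counts in the HA libraries. ACAN, HAPLN1, HAPLN3 and HABP4 had differences of 0.026, 0.054, -0.078 and 0.017. Leaving out 1 library turned the sign in ACAN (-0.12 without PBS replicate 3), HAPLN1 (-0.022 without cNSF-HA replicate 1) and HABP4 (-0.023 without PBS replicate 3). After tBHP the HA effects on these 16 genes ranged from -0.28 in ACAN to 0.44 in HAS3, with adjusted p-values of 0.992 or more from limma.

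**Figure D4:**
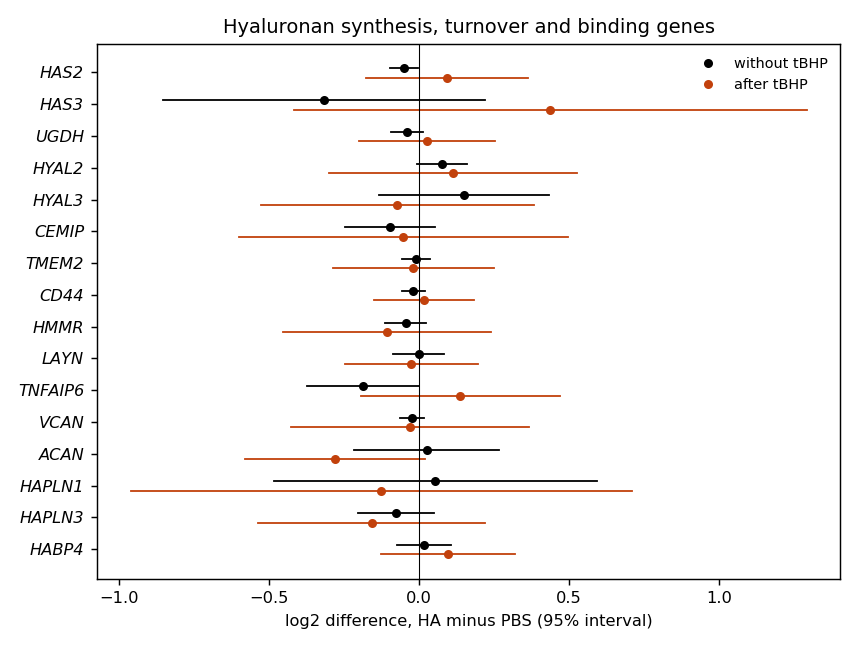
Log2 difference between HA and PBS for the 16 measured HA genes, without tBHP in black and after tBHP in orange, with 95% intervals from limma. Without tBHP the intervals of the abundant genes such as CD44 and VCAN are narrow and close to 0, and those of HAS3 and HAPLN1 are wide.

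Inflammatory genes are the class most often tied to short HA fragments. Per the study most of fNSF-HA stayed of high molecular mass, so the comparison does not test such fragments. With 0.0731% of all genes called, a count of 0 in a list of this size is what the share over all genes gives, here and for the lists that follow. Of 40 NF-kB targets, cytokines and chemokines listed, 26 were tested and 0 were called, 6 had higher and 20 lower values with HA, and the median was -0.033. LIF, a cytokine of the interleukin 6 family, had 4173, 4378 and 4287 normalised counts with PBS and 3769 to 4248 with HA, a log2 difference of -0.10 (adjusted p = 0.665 from limma). PTGS2, the inducible cyclooxygenase, had 1271 to 1416 with PBS and 1165 to 1364 with HA, a difference of -0.10 (adjusted p = 0.917 from limma). Several classic members were close to absent, with at most 6.90 normalised counts for CXCL1, 2.93 for IL1B and 0.933 for CCL20 in any of the 9 libraries. In the interferon-stimulated list, 22 of 37 genes were tested, 0 were called and the median was 0.0029. ISG20, an exonuclease, had 23.3 to 27.1 normalised counts with PBS and 13.7 to 22.4 with HA, with no overlap and an adjusted p of 0.942 from limma, and PARP9 differed by -0.15.

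Of the immediate early and growth factor feedback genes, 37 of 40 were tested and 0 called, with a median of -0.013. DUSP2, a nuclear phosphatase of MAP kinases, had 71.5, 71.8 and 68.3 normalised counts with PBS, 96.4, 86.0 and 84.8 with cNSF-HA and 78.5, 91.6 and 94.1 with fNSF-HA. Its libraries did not overlap, with an effect of 0.32 ± 0.11 (standard error, limma adjusted p = 0.899). KLF4 differed by 0.18 (interval -0.010 to 0.37), and by 0.075 without PBS replicate 1 or 0.29 without PBS replicate 2.

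Matrix genes of these fibroblasts were close to PBS as well. All 47 tested of 48 matrix proteins and collagen-modifying enzymes had intervals within 0.5 of PBS, 0 were called and the median was -0.0059. THBS1, the matricellular protein thrombospondin-1, had 158429, 156837 and 155931 normalised counts with PBS, 145984, 148697 and 149403 with cNSF-HA and 153524, 154323 and 153966 with fNSF-HA. Every HA library was lower, by a log2 difference of -0.057 (adjusted p = 0.729 from limma). COL15A1, a basement membrane zone collagen, had 141 to 148 normalised counts with PBS and 115 to 138 with HA, a difference of -0.22. Among 24 tested matrix proteinases and inhibitors 0 were called, and the plasminogen activators PLAT and PLAU differed by -0.085 and -0.084 with adjusted p-values of 0.907 and 0.917 from limma, and by -0.047 and -0.030 without PBS replicate 1. Of the 32 TGF-beta, YAP and contractile genes, 24 had higher values and 8 lower, 0 were called and the median was 0.017. In this list SMAD6, given above, and ID1, a target of BMP signalling with a difference of 0.076, had the smallest p-values.

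Stress pathways were compared because the study tied HA to stress resistance. Among 32 NRF2 targets, 21 had higher and 11 lower values, 0 were called and the median was 0.012. HMOX1, the haem oxygenase, had 5631, 5999.9 and 6046 normalised counts with PBS and 6019 to 6587 with HA, a log2 difference of 0.075 (interval 0.017 to 0.13, adjusted p = 0.917 from limma), or 0.042 without PBS replicate 1. FTL, the ferritin light chain, differed by 0.051, or by 0.034 without cNSF-HA replicate 1. In the ATF4 list 0 of 29 tested genes were called and the median was 0.018, with CEBPG at 0.12 (0.073 without PBS replicate 1) and the amino acid transporter SLC7A1 at 0.065. The hypoxia and glycolysis list, with 29 genes tested and 0 called, had 5 genes with lower values at an unadjusted p under 0.05 and none with higher values, beside 2.38% of all genes. VEGFA, the vascular growth factor, had 2597, 2544 and 2579.5 normalised counts with PBS, 2466, 2516 and 2489 with cNSF-HA and 2337, 2449.7 and 2388 with fNSF-HA. Its libraries did not overlap, at a difference of -0.077 (adjusted p = 0.907 from limma), and BNIP3, a mitophagy receptor, differed by -0.069. After tBHP the HA effect on VEGFA was -0.13 and that on BNIP3 0.072, and the median of the hypoxia list was 0.019 after tBHP and -0.018 without it (-0.028 to -0.0059 with 1 library left out, nearest to 0 without PBS replicate 1).

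Cell cycle genes had narrow intervals. All 35 mitosis and G2/M genes and all 35 DNA replication genes lay within 0.5 of PBS, and 0 were called in either list. The medians were -0.0052 and 0.021. PLK1, the mitotic kinase, had 4052 to 4275 normalised counts with PBS and 4235 to 4644 with HA, a log2 difference of 0.082 (adjusted p = 0.858 from limma). FOXM1 differed by 0.061, POLD1, the catalytic subunit of DNA polymerase delta, by 0.12 and CDC6, a replication licensing factor, by 0.060.

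**Figure D5:**
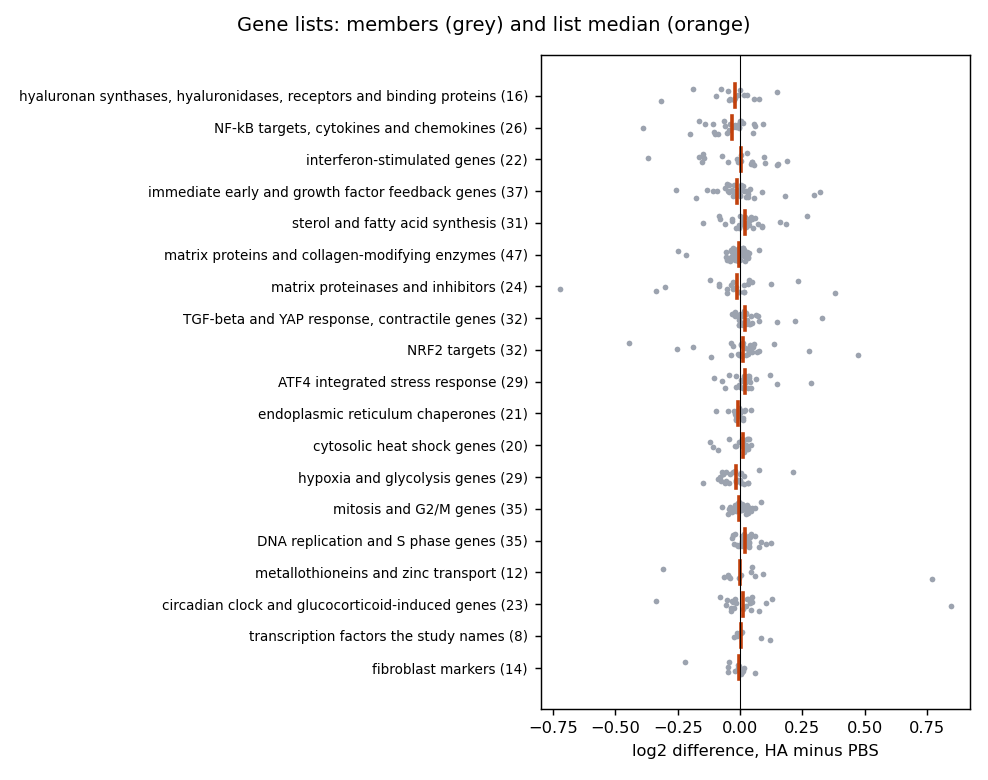
Log2 difference between HA and PBS for every tested member of the gene lists shown, with the number of members in brackets and the list median as an orange bar. The medians lie between -0.033 for NF-kB targets and 0.021, and no member is called.

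The average over the polymer lengths was set beside each length on its own. cNSF-HA against PBS called 0 genes in limma (1648 with an unadjusted p under 0.05), 0 in edgeR and 23 in DESeq2, of which 8 were higher. The limma count was 219 without PBS replicate 1, 72 without cNSF-HA replicate 3 and 280 with a replicate block. fNSF-HA against PBS called 19 genes (0.139%), all lower, and 10 of these were the 10 called for any HA. DESeq2 called 1 gene, and the limma count was 8 without PBS replicate 2 or without fNSF-HA replicate 2. The genes called only with fNSF-HA that had no overlap on the other strand were CCDC85B, MICALL2 and CPNE7, named after their values were seen. CCDC85B differed by -0.36 after fNSF-HA (adjusted p = 0.0240 from limma) and by 0.20 after cNSF-HA, and MICALL2 by -0.29 (adjusted p = 0.0412 from limma) and 0.18. CPNE7 was on the same side in both, at -0.34 (adjusted p = 0.0465 from limma) and -0.13.

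Directly compared, cNSF-HA and fNSF-HA differed in 941 genes (6.88%), 236 higher and 705 lower after cNSF-HA, while edgeR called 323 higher and 328 lower. This count was 120 without fNSF-HA replicate 2, and 433, 441 and 484 without cNSF-HA replicate 1, cNSF-HA replicate 2 or fNSF-HA replicate 3. With the GC and length trend removed, a setting added after seeing the data, it was 33. Among the called genes the level after fNSF-HA was the lower in VIM-AS1 (log2 difference of cNSF-HA to fNSF-HA 0.45, adjusted p = 0.0271 from limma), in BEST1 (1.13, adjusted p = 0.0456 from limma) and in GPS2 (0.94, adjusted p = 0.0102 from limma). In the HA list 3 of 16 genes were called, HAS2, CD44 and HMMR, all lower after cNSF-HA, and none differed from PBS beyond the threshold.

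In the libraries with tBHP, HA against PBS called 0 of 13686 genes in limma (535 with an unadjusted p under 0.05), 0 in edgeR and 0 in DESeq2. The spread within groups was larger there, with a median SD of 0.21 on the log2 scale against 0.076 without tBHP. The motif CCTGCG, which the study names for the intracellular domain of CD44, was found on either strand in 1 of the 2 called genes with a promoter in RefSeq (GRCh38.p14, 250 bases before to 50 after the start), that of GPS2, in 36.2% of the 9699 promoters of genes tested and in 23.5% of all 27305 promoters. A core motif of NF-kB was searched in the same way and found in 0 of the 2, in 1.47% of those of genes tested and in 1.63% of all.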

How the data were processed

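RNA of 18 cultures of IMR90 cells was sequenced after polyA selection as single-end reads with a kit that does not mark strand. Per the labels and the study's methods, the authors trimmed reads with Trimmomatic 0.32, aligned them to GRCh38.p7 with STAR 2.5.2b, counted them with featureCounts (Subread 1.5.0-p3) and divided the counts by DESeq2 size factors. The deposited table holds this normalised signal for 56269 genes, and its columns of the authors' p-value, q-value and rank were not used. Whole reads could be recovered for 100% of values, with a deviation of at most 5.2e-05 reads, and served for depth and the count tests. Counting error alone sets the stated limits for genes without reads.

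Samples were grouped by their labels. The 13686 genes whose mean over the 18 libraries reached 10 were tested on log2(value + 1) with limma 3.58.1 (R 4.3.3, trended empirical Bayes), with a coefficient for each of the PBS, cNSF-HA and fNSF-HA groups and the 9 unstressed libraries only, since the spread was larger after tBHP. p-values were adjusted by Benjamini-Hochberg over all genes, with a threshold of 0.05. edgeR 4.0.16 (quasi-likelihood) and DESeq2 1.42.0 on the recovered reads, other pseudocounts, filters, scalings and sets of libraries were alternatives. Scripts were tested on simulated data.

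Named genes were the called genes with gene symbols, no overlap of groups and a mean of at least 100, limited to the 12 largest changes in each direction, or, where fewer than 10 genes of any kind were past the threshold in a direction, the 10 with the smallest p in it. This last part applied to the higher direction only, since 10 genes were called lower. To these came all measured HA genes and of each other list its called genes or the 2 with the smallest p. The 10 genes lower with the next smallest p, BEST1, GPS2, clone-named genes and genes on opposite strands were named after their values were seen. The gene lists and the comparison were chosen with earlier results of these data known. Positions and overlaps came from GENCODE 29 by gene symbol, which placed 12505 of the tested genes (91.4%), and 1 called gene is counted but not described. A few list members and 1 list are not reported here.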

Additional observations from a re-analysis of the deposited data

Results flagged for a closer look

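Among 95 measures screened over the 6 HA libraries, 2 had a library farther from the others than Dixon's limit, and chance flags about 5% of such groups. HYAL3 was at 59.6 normalised counts in cNSF-HA replicate 2 against 50.7 to 53.9 in the other HA libraries, a gap of 0.633 of the range. The share of reads on cytosolic ribosomal protein genes had a gap of 0.685 of its range, with a highest HA library of 3.29% and a lowest of 3.10%.

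Each HA group's effect was taken against the same PBS libraries, and these effects differed for 14 named genes by the direct test between the HA groups (limma, adjusted p under 0.05). Of all 13686 genes tested, 941 (6.88%) differed by this test, and the named genes were chosen in part by p-value. Among genes lower with HA, the log2 difference of cNSF-HA to fNSF-HA was 0.45 in VIM-AS1, 1.13 in BEST1, 1.54 in RP11-124N14.3, 0.93 in RP5-940J5.9, 0.94 in GPS2 and 1.34 in RP11-138I1.4. The means of both HA groups lay below the PBS mean in these genes, and that of fNSF-HA lay lower. Values were higher after cNSF-HA also in KMT2D, a histone methyltransferase (0.11), and in POLD1 (0.16).

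Lower values after cNSF-HA were found in HAS2 (-0.11), CD44 (-0.077), HMMR (-0.14), FAM107B (-0.096), the metallothionein MT1E (-0.16) and the co-chaperone DNAJB4 (-0.27). DNAJB4 had 856, 942 and 922 normalised counts with PBS, 719, 788 and 768 with cNSF-HA and 913, 951 and 884 with fNSF-HA, so that its fNSF-HA libraries lay in or near the PBS range and its cNSF-HA libraries below it. With the trend with GC content and length removed, the number of genes called between cNSF-HA and fNSF-HA was 33 in place of 941, and the cause was not tested.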

How the results depend on the processing

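For any HA against PBS (10 genes called), the count was 0 with DESeq2, quantile normalization, all 18 libraries, 1 coefficient for any HA or robust empirical Bayes (smallest adjusted p 0.0626, chosen after seeing the data). It was also 0 over only the 9930 genes with no overlap on the other strand (added later), which by construction hold none of the 10 calls. It was 5 with a mean of at least 50 and 5 with GC content and length removed, settings that tested 5 and 4 of the 10 calls and called all of these. It was 6 with 2 libraries left out (added later), 50 with no filter on low values (22 higher, none of the 10 main calls among them) and 0 to 15 with each library left out. The replicate block gave 17 genes, 1 of them higher, and with GC content and length removed 10, also with 1 higher. Same-numbered libraries correlated at -0.020 to 0.115 over 9 pairs, 1 of them above 0.1. Of the 9 libraries, 6 correlated best with their own number. The labels do not say whether libraries of the same number were cultured together, and the main test took them as unpaired. The block gave more calls in each unstressed comparison, and whether the numbers are pairs was not tested.

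For cNSF-HA (0 calls) the count was 29 with no filter, 23 with DESeq2 (which gave no adjusted p for 12471 genes), 280 with the replicate block and 0 to 219 with each library left out. For fNSF-HA (19 calls) it was 5 with a mean of at least 50, 1 with DESeq2, 38 with the replicate block, 0 with all 18 libraries (added later) and 8 to 21. For cNSF-HA against fNSF-HA (941 calls) it was 71 with no filter and 422 with DESeq2, which gave no adjusted p for 7429 genes. It was 1439 with the replicate block, 33 with GC content and length removed (added later) and 120 to 1104 with each library left out. After tBHP (0 calls) no filter gave 16, and each library left out gave 0 to 0. For the difference between the effects with and without tBHP (0 calls) DESeq2 gave 4, and leaving out libraries 0 to 2. The cause of these changes was not tested. Over all alternatives, no called gene changed direction, and 93 of 200 values of called genes were no longer past the threshold. Of the uncalled genes named, ATOH8, STC1 and THBS1 passed with the replicate block (adjusted p = 0.0390, 0.0385 and 0.0390 from limma), these and LIF passed with the block and GC correction together (0.0252, 0.0309, 0.00258 and 0.00962), and STC1 passed without PBS replicate 1 (0.0292). Precision was lower for the rarer genes, with intervals within 0.5 for 85.2% of all genes against 99.9% of those with a mean of at least 100.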

Other observations

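Lists not described above had 0 members called in each. Of 31 sterol and fatty acid synthesis genes tested, 22 had higher and 9 lower values with HA and the median log2 difference was 0.021. MVD, an enzyme of the mevalonate pathway, had 568 to 591 normalised counts with PBS and 488 to 555 with HA, with no overlap and a difference of -0.15 (adjusted p = 0.825 from limma). Of 21 endoplasmic reticulum chaperone genes, 16 had lower values and the median was -0.0068, with HERPUD1 at -0.049 and ERN1 at -0.095. Of 20 cytosolic heat shock genes the median was 0.011, and the smallest p-values were those of DNAJB4 (-0.12) and CHORDC1 (-0.091).

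Of 12 metallothionein and zinc transport genes the median was 0.00069, with MT1E at -0.067 and SLC39A14 at 0.045, and 9 of the 12 had intervals within 0.5 of PBS. Of 23 circadian clock and glucocorticoid-induced genes it was 0.010, with ERRFI1, a feedback inhibitor of the EGF receptor, at -0.081 (adjusted p = 0.836 from limma) and SGK1 at -0.055, and 20 of the 23 had intervals within 0.5. Among 8 transcription factors listed, including ELK1 and EGR1, which the study names, the median was 0.0028, with NOTCH1 at 0.084. Of 5 muscle markers 4 were tested, and their sum was 8405 to 9027 normalised counts with PBS and 8094 to 9066 with HA. The epithelial sum was 555 to 581 with PBS and 511 to 567 with HA, with 5 of 10 genes at 0 in all 9 libraries, and the endothelial sum was 1286 to 1326 and 1289 to 1462, nearly all of it from TEK.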
